A study of Homo sapiens and Mus musculus with 4 samples.

Results

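Megabases of the mouse genome that held many ATF4 peaks were examined in bone marrow cells of C57BL/6 mice. Chromosomes 1 to 19 were cut into windows of 1 Mb from position 1, the centre of each listed ATF4 peak was placed in its window, and windows with 60 or more centres were called dense. This gave 169 dense windows of 2468, which is 6.85% of the windows up to the last peak of each chromosome. They held 12405 of the 81297 autosomal peaks and of the 83088 peaks in the whole mouse list. The peak list came from 1 library precipitated with an anti-ATF4 antibody, set against 1 input library of bone marrow chromatin prepared without antibody. The labels give no genotype, treatment or age for these mice, and no replicate library was analysed here. The KG1a list of the same series, from a human myeloid leukaemia line, had only 860 peaks on numbered chromosomes and at most 4 in a 1 Mb window, too few for a comparison of grouping. The windows were chosen by their number of peaks, so every count, width and spacing from the same list is given as a description, without a test.

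ATF4 is a basic leucine zipper transcription factor. Its messenger RNA is translated more when the initiation factor eIF2 is phosphorylated under amino acid shortage or endoplasmic reticulum stress, and it activates genes of amino acid supply and stress adaptation, often as a dimer with C/EBP proteins. Bone marrow is the site of adult blood formation and a mixture of stem cells, progenitors and maturing myeloid, erythroid and lymphoid cells, so 1 list averages over these cells. Mouse autosomes carry their centromere at one end, and positions are counted from that end. Genes are spread unevenly along them. Gene density and the blood or housekeeping gene clusters in the dense windows were not analysed here, because no mouse gene annotation or sequence was used. The labelled tissue was for the same reason not checked against marker genes.

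Dense windows were the upper tail of a continuous spread. They held a median of 71 peaks, with quartiles of 63 and 79 and a highest value of 129, where the 2237 other windows with a peak held a median of 30, with quartiles of 23 and 38. No break in the counts marks the threshold. Just inside it, 13 windows held exactly 60 peaks, with 2 each on chromosomes 5 and 6 and 1 each on chromosomes 1, 4, 7, 9, 12, 13, 14, 16 and 17. Just outside it, 7 windows held 59, at 162 to 163 Mb on chromosome 2, 31 to 32 Mb on chromosome 5, 112 to 113 Mb on chromosome 8, 57 to 58 Mb on chromosome 11, 83 to 84 and 86 to 87 Mb on chromosome 15, and 93 to 94 Mb on chromosome 16. The windows with 60 peaks had 4.60 to 8.93% of their bases in peaks, and those with 59 had 4.96 to 7.82%. At higher levels, 90 windows held at least 70 peaks, 41 at least 80, 18 at least 90 and 10 at least 100. A further 62 windows had no peak, of which 57 were the first 3 Mb of the 19 autosomes.

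**Figure D1:**
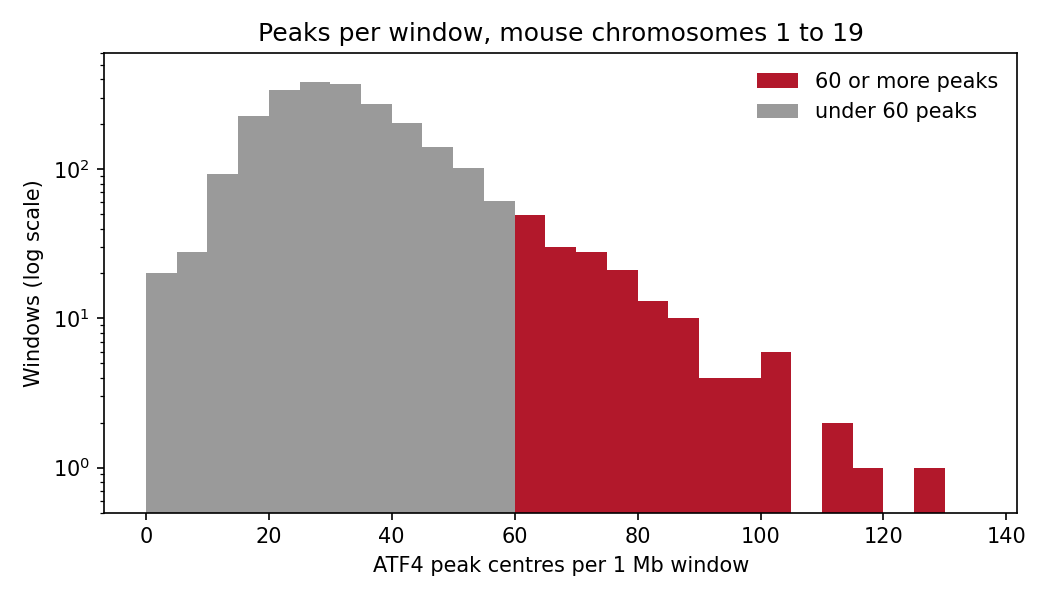
Number of 1 Mb windows on mouse chromosomes 1 to 19 (y axis, log scale) by the number of ATF4 peak centres they hold (x axis, steps of 5), with the 169 dense windows in red and the other windows with a peak in grey. The counts fall off without a break at 60 and end at 129.

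The dense windows were unevenly shared among chromosomes. Chromosome 5 had 29, chromosome 11 had 25, chromosome 2 had 17, chromosome 4 had 16 and chromosome 7 had 15. These 5 chromosomes, picked after their counts were seen, held 102 of the 169 dense windows (60.4%) and 30.8% of all windows. On chromosome 11, 20.5% of windows were dense and held 35.5% of that chromosome's peaks. On chromosome 5 it was 19.1% of windows and 36.9% of peaks. Chromosome 17 followed with 13 dense windows (13.7%), and chromosomes 9, 15 and 8 had 12, 11 and 10. Chromosome 1, the longest, had 6 (3.06%), and chromosome 19 had 3.

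Other chromosomes had almost no dense window. Chromosomes 6, 10, 13, 14 and 16 had 2 each, and chromosomes 3 and 12 had 1 each. Chromosome 18 had none, and its fullest window, from 72 to 73 Mb, held 52 peaks. The median window held 41 peaks on chromosome 11 and 34 on chromosome 5, but 25 on chromosome 3 and 26 on chromosomes 14 and 16. Chromosome 12 had a median of 33, close to that of chromosome 5, with a single dense window of 60 peaks at 111 to 112 Mb. The typical window of a chromosome and its number of dense windows therefore did not run strictly together. On the X and Y chromosomes, which were not part of the selection, no window held more than 24 and 19 peaks.

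**Figure D2:**
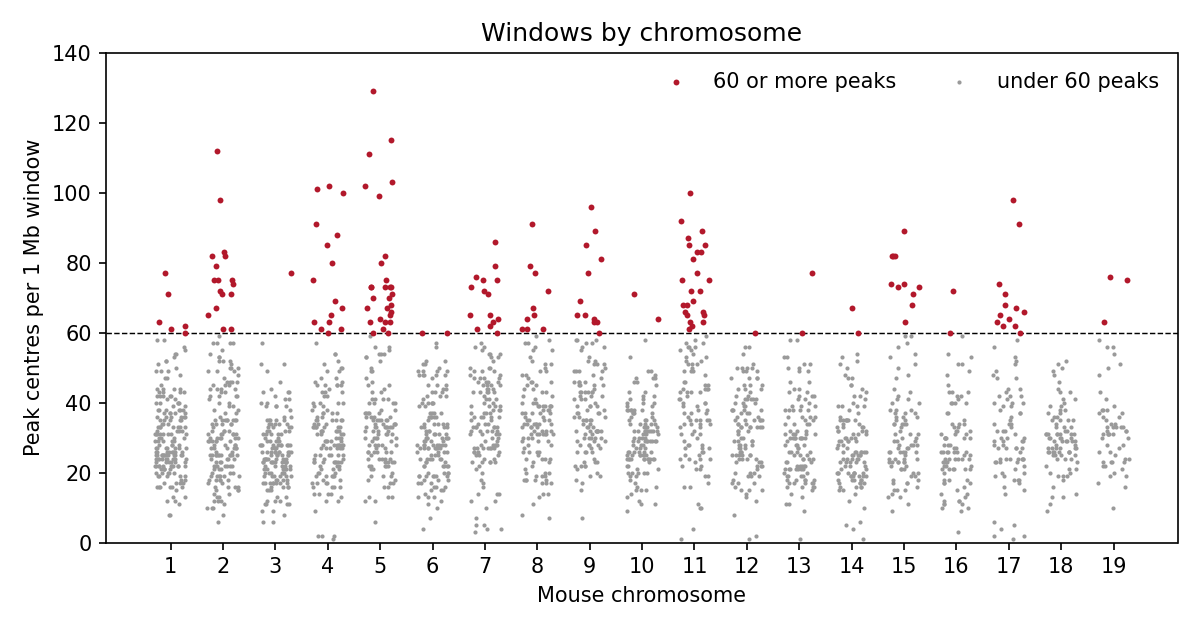
ATF4 peak centres per 1 Mb window (y axis) on each mouse autosome (x axis), with 1 point for each window that holds a peak, spread sideways at random. Dense windows, in red above the dashed line at 60, are most frequent on chromosomes 5 and 11 and absent from chromosome 18.

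Dense windows adjoined one another. Of the 169, 105 (62.1%) had a dense window next to them. The windows beside a dense one held a median of 57 peaks, against 30 beside the other windows with a peak. The 57 includes neighbours that were themselves dense. Beside the 64 dense windows that stood alone, the median was 45 peaks (0 to 59). The 169 windows formed 92 separate stretches. Of these stretches, 64 were single windows, 13 were pairs and 15 ran over 3 or more windows. The 15 long stretches covered 79 windows and held 6141 peaks, 49.5% of all peaks in dense windows. Across 2384 pairs of neighbouring windows that both held peaks, the counts correlated with a Pearson r of 0.55 and a Spearman rho of 0.44. Neighbouring windows share their chromosome and library and are not independent, so no p is attached.

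The longest stretch ran over 12 windows of chromosome 5, from 133 to 145 Mb (GRCm38, as are all positions here). It held 1050 peaks, a mean of 87.5 per window. From its low-coordinate edge the windows held 115, 71, 103, 99, 129, 102, 82, 67, 66, 70, 73 and 73 peaks. The fullest part thus lay in the first 6 windows, with 1 fall to 71, and the rest stayed between 66 and 82. Windows with 54 peaks closed the stretch on both sides. Peaks took up 9.95% of its bases, 154 of them were wider than 2 kb and 27 wider than 5 kb.

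The second, of 10 windows, ran on chromosome 4 from 133 to 143 Mb and held 823 peaks. Its windows held 101, 100, 60, 91, 80, 88, 65, 61, 75 and 102, so both ends were fuller than most of its middle. The high-coordinate border was sharp, as the last window held 102 peaks and the next one 25. On the other side the neighbour held 52. Peaks covered 9.46% of this stretch, and 26 of them were wider than 5 kb.

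The third, of 9 windows, ran on chromosome 2 from 164 to 173 Mb and held 694 peaks. Its windows held 75, 112, 71, 82, 72, 75, 79, 61 and 67, a level course apart from the second. A window with 53 peaks separated it from a further dense window with 61 at 174 to 175 Mb, and the window after that held 0. Although it was nearly as long as the stretch on chromosome 4, 12 of its peaks were wider than 5 kb, against 26 of the 823 there. At 2 kb the stretches were alike, with 100 and 118 wider peaks, and their median widths were 623.5 and 636 bp.

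**Figure D3:**
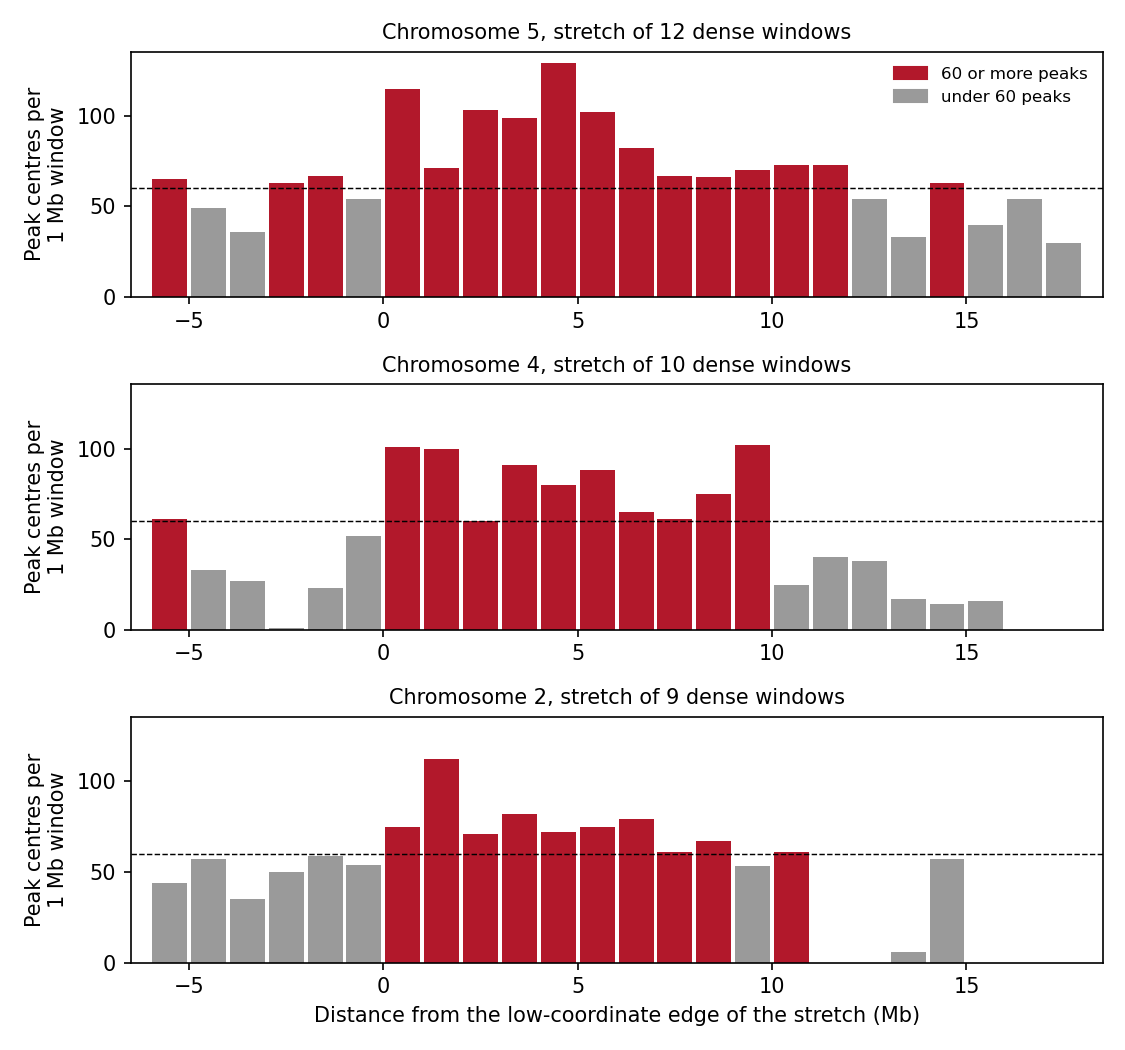
ATF4 peak centres per 1 Mb window (y axis) across the 3 longest stretches of dense windows and up to 6 Mb on either side (x axis, distance from the low-coordinate edge of the stretch), with dense windows in red and others in grey. Chromosome 5 peaks at 129 in the fifth window, chromosome 4 drops to 25 past its last window, and chromosome 2 holds 112 in its second window.

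Chromosome 5 held more than its longest stretch. A run of 6 windows from 111 to 117 Mb held 73, 61, 60, 68, 64 and 80 peaks, and a run of 4 from 118 to 122 Mb held 60, 111, 73 and 75. The window between them, from 117 to 118 Mb, had 52 peaks and was not dense. It nevertheless contained the widest autosomal peak, 17247 bp from 117020303 to 117037549, and peaks took up 8.53% of it, more than the 7.53% of the median dense window. If single windows under 60 are bridged, 111 to 124 Mb becomes 1 zone with 11 dense windows of 13. In the same way 130 to 145 Mb becomes a zone with 14 of 15. The bridged windows held 52 to 56 peaks in the first zone and 54 in the second. The same bridging joined 10 dense windows of 11 on chromosome 2 from 164 to 175 Mb, over a window with 53. On chromosome 11 it joined 9 of 12 from 107 to 119 Mb and 7 of 10 from 94 to 104 Mb. The windows bridged there reached lower counts, at 35 to 56 and 37 to 58 peaks.

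The other long stretches were shorter, and some of them were more even. On chromosome 15, 6 windows from 77 to 83 Mb held 74, 89, 82, 82, 74 and 71 peaks, with 56 and 59 in the windows beside them. Chromosome 15 also had a run of 3 from 100 to 103 Mb (63, 82 and 73). On chromosome 11, 5 windows from 114 to 119 Mb held 85, 61, 77, 75 and 66, and 20 of those peaks were wider than 5 kb. Chromosome 17 had 5 windows from 45 to 50 Mb with 71, 66, 98, 62 and 64, a single high window amid values near the threshold. The 3 windows of chromosome 11 from 96 to 99 Mb were even, with 81, 83 and 85. Those from 77 to 80 Mb held 63, 83 and 68.

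Chromosome 7 had 3 such runs in different parts of the chromosome. They lay from 43 to 46 Mb with 75, 75 and 71 peaks, from 98 to 102 Mb with 65, 62, 64 and 79, and from 126 to 129 Mb with 76, 86 and 73. The first was preceded by a window with only 14 peaks, so the count changed there from the sparse to the dense range within 1 window. On chromosome 2, the run from 30 to 33 Mb (98, 82 and 65) lay far from the stretch at 164 to 173 Mb. A pair on chromosome 17 from 29 to 31 Mb, with 133 peaks together, was preceded by a window with 2.

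Of the 15 fullest windows, 5 lay in the longest stretch on chromosome 5, at 133 to 134, 135 to 136, 136 to 137, 137 to 138 and 138 to 139 Mb. A sixth on that chromosome, from 119 to 120 Mb, held 111. Chromosome 4 gave 3, at 133 to 134, 134 to 135 and 142 to 143 Mb, and chromosome 2 gave 2, at 165 to 166 Mb and 30 to 31 Mb. The rest were at 102 to 103 Mb on chromosome 11 with 100 peaks, 47 to 48 Mb on chromosome 17 with 98, 120 to 121 Mb on chromosome 9 with 96, and 69 to 70 Mb on chromosome 11 with 92. The window on chromosome 9 had no dense neighbour, nor did that from 69 to 70 Mb on chromosome 11. High counts were therefore also found outside long stretches.

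On the remaining chromosomes the fullest dense windows held fewer peaks. They were 108 to 109 Mb on chromosome 8 with 91, 78 to 79 Mb on chromosome 15 with 89, 127 to 128 Mb on chromosome 7 with 86, and 134 to 135 Mb on chromosome 1 with 77. Chromosome 3 reached 77 in its only dense window, at 89 to 90 Mb, as did chromosome 13 at 52 to 53 Mb. Chromosome 19 reached 76 at 5 to 6 Mb, chromosome 16 reached 72 at 6 to 7 Mb, chromosome 10 reached 71 at 127 to 128 Mb and chromosome 14 reached 67 at 55 to 56 Mb. On chromosome 6 both dense windows, 72 to 73 and 125 to 126 Mb, held 60. None of these windows on chromosomes 3, 6, 10, 13, 14, 16 and 19 had a dense neighbour.

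Dense windows were rare at the centromeric end and frequent at the other end. In the first 20 Mb of the 19 chromosomes, 2 of 380 windows were dense (0.526%), both named above, at 6 to 7 Mb on chromosome 16 and 5 to 6 Mb on chromosome 19. In the last 20 Mb before the last peak, 67 of 380 were dense (17.6%). Between these, 100 of 1708 were dense (5.85%). The first 20 Mb include the windows without a peak at the start of each chromosome. The pattern did not hold on every chromosome. Chromosomes 2, 4, 5, 7, 8, 9, 10, 11, 12, 15, 16 and 19, which are 12 of the 19, had a dense window in their last 20 Mb. Most of the 67 came from few chromosomes, with 13 on chromosome 5, 12 on chromosome 11, 10 on chromosome 2 and 8 on chromosome 4. Chromosomes 10, 12 and 16 had 1 each. The other 7 of the 19 chromosomes had none there. On chromosome 17, with 13 dense windows, the last of them ended 36.9 Mb before the last peak, and on chromosomes 3, 13 and 14 this distance was 69.9, 67.0 and 68.8 Mb. It was also over 20 Mb on chromosomes 1 and 6, and chromosome 18 had no dense window. The closest approach was on chromosome 11, where the dense window from 121 to 122 Mb held the last peak. On chromosomes 19, 15, 9 and 4 the last dense stretch ended 0.264, 0.903, 1.11 and 1.19 Mb before the last peak.

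Peaks in dense windows covered 13.3 Mb, 17.9% of the 74.6 Mb covered by all autosomal peaks, while their number was 15.3% of the autosomal peaks. Even so, most bases of a dense window lay outside peaks. The covered share had a median of 7.53% and ranged from 4.56 to 17.9%, against a median of 2.49% and at most 8.78% in the other windows with a peak. The most covered was 119 to 120 Mb on chromosome 5, with 179 kb (17.9%), followed by 137 to 138 Mb on that chromosome with 176 kb (17.6%). The least covered dense window was 57 to 58 Mb on chromosome 17, with 62 peaks over 45.6 kb.

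Number and coverage did not rank the windows alike. At 133 to 134 Mb on chromosome 5 lay 115 peaks, the second highest number, but they covered 9.54% and this window was in place 35 by coverage. Its widest peak was 4055 bp. By contrast, 112 to 113 Mb on that chromosome had 61 peaks, in place 146 by number, and covered 11.7%, in place 6. At 137 to 138 Mb the 129 peaks had a median width of 759 bp and 28 were wider than 2 kb, while at 138 to 139 Mb, next to it, the 102 peaks had a median of 564 bp and 7 were wider than 2 kb. Across the 169 dense windows, number and covered bases correlated with a Spearman rho of 0.69 and a Pearson r of 0.75, a description in which both measures come from the same peaks. The 20 most covered windows were all dense, and 87 of the 100 most covered were.

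**Figure D4:**
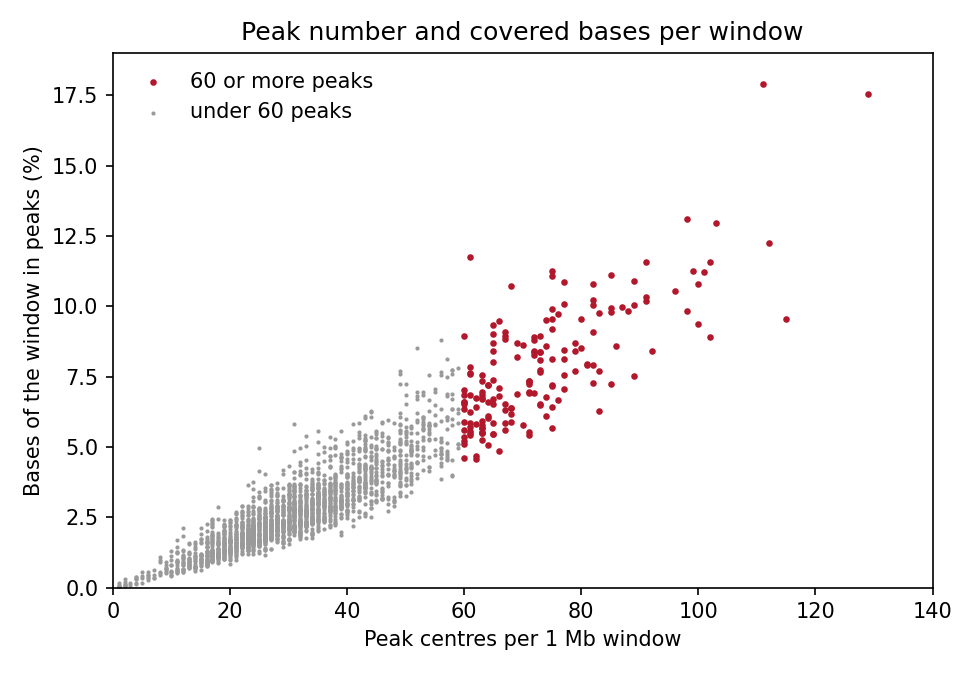
Share of bases in ATF4 peaks (y axis, percent) against peak centres (x axis) for each 1 Mb window with a peak on mouse chromosomes 1 to 19, with dense windows in red and the others in grey. The windows at 17.9 and 17.6% stand above all others, and the window with 115 peaks lies at 9.54%.

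Peaks in dense windows were wider than elsewhere. Their median width was 604 bp (quartiles 379 and 1170 bp), against 537 bp (quartiles 359 and 948 bp) for the 68892 other autosomal peaks. Wider than 2 kb were 13.1% of them, against 8.77% of the others. Wider than 5 kb were 280 (2.26%), against 860 (1.25%). Peaks over 2 kb made up 45.7% of the covered bases in dense windows and 34.8% elsewhere. Of the 20 widest autosomal peaks, 7 were in dense windows. When autosomal peaks were ordered by width, 13.4% of the narrowest 25% and 18.6% of the widest 25% were in dense windows. The contrast in width was not specific to the chosen threshold. With dense windows set at 50 or more peaks, the median widths were 592 bp inside and 531 bp outside them. At 70 or more peaks they were 613 and 540 bp. Windows just under the chosen threshold were not compared as a separate group.

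The widest peaks in dense windows stood in several places. A pair of 16597 and 16350 bp lay in the window from 26 to 27 Mb on chromosome 17, at 26387098 to 26403694 and 26303669 to 26320018, and that window held 74 peaks. Others were 15983 bp at 126790917 to 126806899 on chromosome 8, 15807 bp at 157396800 to 157412606 on chromosome 2, 15136 bp at 131650634 to 131665769 on chromosome 5 and 14122 bp at 122035047 to 122049168 on chromosome 9. The pair lay in a single dense window without dense neighbours, and the peaks on chromosomes 8, 2 and 5 lay in stretches of 2 windows. None of these 6 peaks lay in a stretch of 3 or more, where 49.5% of all peaks in dense windows lay. The next widest, 13502 bp on chromosome 4 and 12366 bp on chromosome 6, also lay in single windows. Those after them, 11606 bp on chromosome 7, 11564 bp on chromosome 2 and 11259 bp on chromosome 5, lay in such stretches. Very wide peaks were thus found in long stretches too. In 43 of the 169 dense windows no peak exceeded 5 kb.

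**Figure D5:**
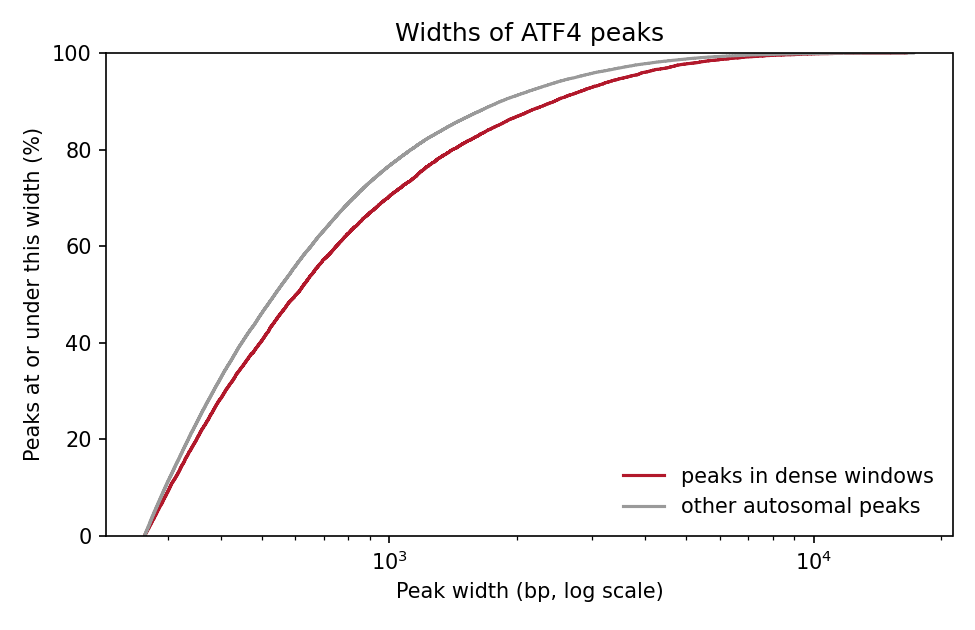
Cumulative share of peaks (y axis, percent) by width (x axis, bp, log scale) for the 12405 peaks in dense windows in red and the 68892 other autosomal peaks in grey. The red curve lies to the right, with medians of 604 and 537 bp.

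The peaks were spread through their windows as well as bunched. In 139 of the 169 dense windows each of the 10 bins of 100 kb held a peak, and the fewest bins with a peak in any dense window was 7. The fullest bin held a median of 19.1% of the window's peaks. The most bunched window was 98 to 99 Mb on chromosome 15, with 26 of 68 peaks (38.2%) in 1 bin. The next, 118 to 119 Mb on chromosome 11, had 20 of 66 (30.3%). The 3 windows of even count on chromosome 11 included the flattest of all, 97 to 98 Mb, where the fullest bin held 12.0%.

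Peaks separated by at most 3 kb were joined into groups. Dense windows held 35.5 groups on average, against 18.2 in the other windows with a peak, and a group held 2.07 peaks on average, against 1.69. Groups were more numerous and also larger. These values and the spacings below are tied to the choice of windows by their number of peaks. No comparison at equal peak density was made, so they do not show bunching apart from that choice. Lone peaks made up 48.7% of the groups in dense windows and 61.4% elsewhere, and groups of 5 or more peaks 7.17 and 3.30%. The median distance from a peak in a dense window to the next centre was 3.96 kb, against 10.1 kb for the other autosomal peaks. It exceeded 50 kb for 6.38%, against 21.8%. Distances within 1 kb differed less, at 6.62 and 6.15%.

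The largest group had 20 peaks within 34.9 kb, at 111975313 to 112010214 on chromosome 5. It crossed the border between the windows from 111 to 112 and 112 to 113 Mb. The next had 12 peaks within 21.9 kb at 55193001 to 55214884 on chromosome 14 and 11 within 20.5 kb at 62803835 to 62824381 on chromosome 9. The group on chromosome 14 lay in a dense window of 67 peaks without dense neighbours. A pair of groups with 10 peaks each lay in the window from 108 to 109 Mb on chromosome 8, at 108639909 to 108666533 and 108495105 to 108512092. In the fullest window of all, 137 to 138 Mb on chromosome 5, no group exceeded 7 peaks and 49 groups were counted.

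Peaks of dense windows stood slightly earlier in the deposited order, which carries no stated meaning. In 4 equal parts of the autosomal list in that order, 17.4, 15.5, 14.2 and 13.9% of peaks were in dense windows. The median place was 38175, against 41928.5 for the other autosomal peaks. Earlier peaks were also wider. In the first 50% of the order, with the threshold scaled, median widths were 976 bp in dense windows and 832 bp elsewhere, against 604 and 537 bp in the whole autosomal list. Whether place differed apart from width was not tested. Whether read depth, repeats or the local background of the input library move with the number of peaks in a window was not tested, because the list holds positions alone.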

How the data were processed

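The data are 1 list of ATF4 peaks from mouse bone marrow, made from 1 ChIP library against 1 input library, per the labels. The submitters' processing notes name the tools CASAVA 1.4, Bowtie2, MACS2 and deepTools and the builds GRCh38 and GRCm38. For roles, settings and the peak threshold, no value is stated in the sources used here. The deposited list has 3 columns, chromosome, start and end in bases, with no score, height, fold or p-value, so the read depth is unknown, and with it the precision of any 1 peak. Starts were read as counted from 0 and are printed counted from 1. A peak was placed by the middle of its interval. Windows ran from position 1 to the window of the last peak on each chromosome. Python 3.11.15 with pandas 2.3.3, numpy 2.4.6, scipy 1.17.1 and matplotlib 3.10.9 was used, and the counting code was tested on simulated data. Dense windows, lists and alternatives were chosen with earlier results of these data known. Windows named in the text were the 15 fullest, the fullest of each chromosome, each run of 3 or more, and those at 59 and 60 peaks. Other windows and peaks, given for width, coverage or bunching, were picked after their values were seen. No test was run, since the rule used the same list. Gene density and the gene lists that the design foresaw need a mouse annotation and were not run. The KG1a list served only for its highest window count.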

Additional observations from a re-analysis of the deposited data

How the results depend on the processing

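The 10 alternatives were chosen with earlier results of these data known. With 50 or more peaks there were 332 dense windows in 159 stretches, with 21155 peaks covering 22.1 Mb. With 70 or more there were 90 windows in 53 stretches, with 7383 peaks covering 8.05 Mb, and stretches of 7 Mb on chromosomes 2 and 5 were then equally the longest. Windows of 500 kb with 30 or more peaks gave 437 dense windows in 259 stretches, the longest 7.5 Mb on chromosome 2. Windows of 2 Mb with 120 or more gave 77 in 36. Counts of windows of unlike size do not compare directly. In extent the dense windows made up 218.5 and 154 Mb, against 169 Mb with windows of 1 Mb. Merging peaks with gaps of 1 kb or less moved the extent most. At 60 or more, 13 windows in 12 stretches then remained, with 841 merged peaks covering 1.79 Mb and a median width of 1193 bp. All 13 were among the 169. With the threshold scaled to the smaller number of merged peaks, 118 windows were dense, 117 of them among the 169, with 6048 merged peaks of 943.5 bp median width. The median width was 1070 bp in the wider 50% of peaks and 976 bp in the first 50% of the deposited order. With the threshold lowered to 30 peaks for these smaller lists, dense windows numbered 238 and 231, including 156 and 153 of the 169. The other values moved by less than 1.5 times, or, for the median width, stayed within 591 to 616 bp. That range is a 95% binomial interval that treats the peaks of 1 library as independent, which they are not. It served only as a yardstick and measures no spread between libraries. A shift of the windows by 500 kb gave 181 dense windows, and the longest stretch, 15 Mb, was again on chromosome 5. Counting a peak in every window it overlaps gave 169, the same windows. The alternatives for gene density were not run. No paired analysis was possible because each group has 1 sample and no test was made. The unknown depth limits the list, since peaks under the peak caller's threshold were not analysed here.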
